A study of Mus musculus with 15 samples.

Results

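The transcripts of 10 genes that limit mitogen-activated protein kinase (MAPK) signalling were followed in MH-S cells, a mouse alveolar macrophage line transformed with SV40. They are the dual-specificity phosphatase genes Dusp1, Dusp2, Dusp3, Dusp4, Dusp5, Dusp6, Dusp10 and Dusp16, together with Spry2 and Spred1. The rows were chosen by gene symbol from the 78317 genes of the count table, and all 10 genes were among the 16654 that passed the filter on low counts.

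RNA came from 15 wells in 5 groups of 3. Cells were cultured for 24 h after seeding and then kept for 24 h under the conditions of their group. M0 cells received medium only, M1 cells LPS at 1 µg/mL with IFN-γ at 20 ng/mL, and M2 cells IL-4 at 20 ng/mL. The other groups received CaP or SiO2 microrods at 0.1 mg/mL in 200 µL, coated with layers of polyelectrolyte. Equal mass was given, so the number of rods differed between the materials. Each microrod well held its own particle batch and all wells held 1 cell passage, so p-values cover the spread between wells and not between passages. The line is a transformed one, and no primary alveolar macrophages were compared.

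Total counts ranged from 8459643 to 68750050 per library, which sets the precision of the low genes Dusp5, Dusp10, Dusp2 and Dusp16. The labels of the stimulated groups held, since Il1b, Il6 and Nos2 summed to between 417 and 513 CPM (counts divided by each library's TMM-scaled size) in M1 and to at most 3.56 elsewhere. Ccl24, Clec10a and Arg1 summed to between 1590 and 1960 CPM in M2 and to at most 37.1 elsewhere. In every group 8 of 9 macrophage markers exceeded 1 CPM. Of 8 alveolar macrophage markers, 2 exceeded 1 CPM in M0, 4 in M1, 2 in M2 and 1 with either microrod. Itgax was between 1.62 and 4.27 CPM in the group means and Mrc1 was at 27.6 CPM in M2. Marco and Fabp4 averaged 2.18 and 1.41 CPM in M1 and below 1 CPM in the other groups. Siglecf, Pparg, Chil3 and Car4 stayed below 1 CPM in every library. Summed markers of epithelium, fibroblasts, lymphocytes, neutrophils and endothelium reached at most 1.77 CPM in any library. The libraries M0 3, M2 2 and SiO2 2 stood apart on the second principal component (−42.7, −43.9 and −21.7), and results that rest on them are given with and without them.

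MAPK pathways carry signals from surface receptors through a chain of kinases to ERK, JNK and p38, which are switched on when a threonine and a tyrosine in their activation loop are phosphorylated. Dual-specificity phosphatases remove both phosphates. Many of their genes are themselves switched on by the kinases they silence, which makes them negative feedback. In macrophages, Toll-like receptor ligands such as LPS activate all 3 kinase branches, and Dusp1 is known as a brake on p38 and JNK there. Sprouty and Spred proteins act higher in the chain, between the receptor and RAF.

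Dusp1, Dusp2 and Dusp5 had higher transcript levels in M1 than in both M0 and M2, so the 250 bases upstream of their starts are shown. The sequences are those of RefSeq on GRCm38.p6, written 5′ to 3′ on the strand of the gene, and capitals mark matches to the CRE, its core, the E-box and the CArG box on either strand, while matches to a loose NF-kB pattern are left in lower case. The windows are chr17:26508473-26508722 on the minus strand for Dusp1, chr2:127335909-127336158 on the plus strand for Dusp2 and chr19:53528895-53529144 on the plus strand for Dusp5. The counts themselves were made on GRCm39, so these positions apply to the sequences only.
Dusp1: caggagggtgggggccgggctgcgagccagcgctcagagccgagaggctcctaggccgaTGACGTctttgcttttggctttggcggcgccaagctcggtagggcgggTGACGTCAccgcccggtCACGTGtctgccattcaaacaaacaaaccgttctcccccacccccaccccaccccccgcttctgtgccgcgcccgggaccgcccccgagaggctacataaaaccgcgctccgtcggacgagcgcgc
Dusp2: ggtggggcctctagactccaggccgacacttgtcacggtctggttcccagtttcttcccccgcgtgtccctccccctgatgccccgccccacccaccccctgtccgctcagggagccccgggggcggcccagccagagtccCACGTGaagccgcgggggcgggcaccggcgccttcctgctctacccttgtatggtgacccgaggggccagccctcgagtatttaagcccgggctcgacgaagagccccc
Dusp5: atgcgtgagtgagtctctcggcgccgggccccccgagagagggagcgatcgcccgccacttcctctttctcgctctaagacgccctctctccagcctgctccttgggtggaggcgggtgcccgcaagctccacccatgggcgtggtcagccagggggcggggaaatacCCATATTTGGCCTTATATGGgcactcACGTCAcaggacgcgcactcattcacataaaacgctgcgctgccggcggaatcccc

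The Dusp1 window held a full cyclic AMP response element (CRE, TGACGTCA) at −143 to −136 from the start, and a further CRE core (TGACGT) at −191 to −186. Its E-box (CACGTG) lay at −126 to −121. The Dusp2 window held an E-box at −109 to −104. The Dusp5 window held a pair of adjoining CArG boxes, the motif of serum response factor, at −82 to −73 and −72 to −63, followed by a CRE core on the other strand at −56 to −51. Every full CRE holds the CRE core on both strands. Of 32851 windows of this length, 1.55% held the full CRE, 6.47% the CRE core, 6.02% the E-box and 1.47% a CArG box.

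RefSeq entries were found for 9 of the 10 genes, all but Dusp4. Among those 9, the full CRE was in 1 window, the CRE core in 2, the E-box in 2 and a CArG box in 1. The AP-1 motif TGACTCA, the GAS motif TTCNNNGAA, the STAT6-type motif (TTC and GAA with 4 bases between them), the TATA box TATAAA and the ETS motif CCGGAAGT were in none of them. Their shares of all windows were 4.46%, 7.02%, 5.85%, 12.4% and 2.88%. A loose NF-kB pattern (GGG and CC with 5 bases between them) was in 8 of the 9 windows, the 3 printed ones included, and in 45.8% of all windows. Its fixed letters are all G or C. The 9 windows held between 56.4% and 70.8% G and C, against a median of 52.4% over all windows. The part of base content in the 8 matches was not tested. Motif matches describe letters and are not evidence of binding.

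In resting M0 cells the 10 genes spanned a wide range of levels. On a scale of CPM per kb of exon, which allows genes to be compared, the mean level was 74.1 for Dusp3 (a small phosphatase without a kinase-docking domain), 42 for Spry2 and 24.7 for Dusp6. It was 7.28 for Dusp1, 4.2 for Spred1, 3.02 for Dusp4 and 1.98 for Dusp2. The lowest levels were those of Dusp5 at 0.651, Dusp16 at 0.505 and Dusp10 at 0.256. In M0 the transcripts were therefore led by Dusp3, Spry2 and Dusp6, and the 4 nuclear inducible phosphatases Dusp1, Dusp2, Dusp4 and Dusp5 lay below them. In M1, Dusp1 rose to 24.5 CPM per kb and stood close to Spry2 at 25.2 and above Dusp6 at 13.6.

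**Figure D1:**
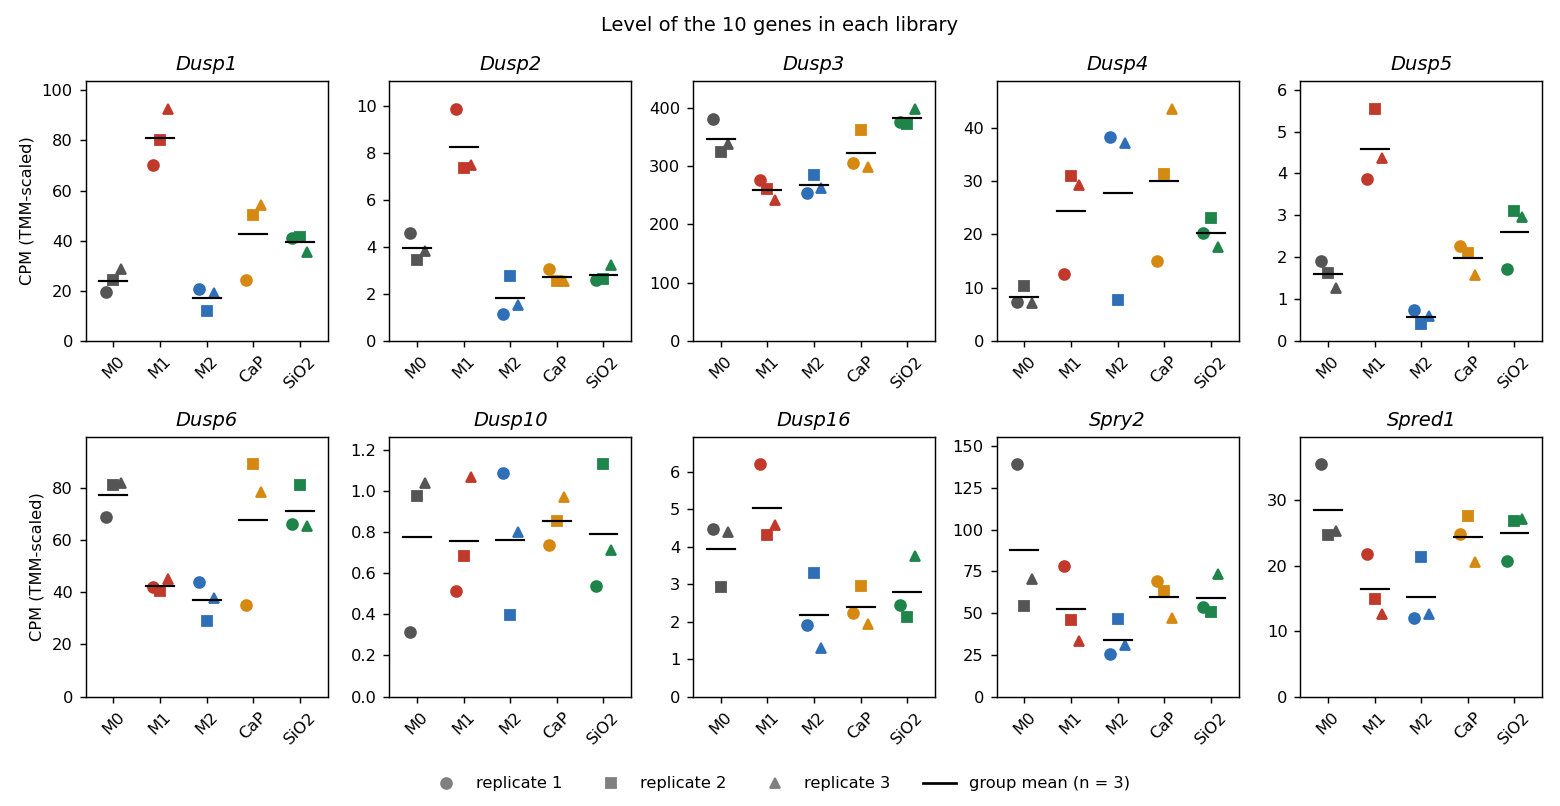
Level of each of the 10 genes in every library, in CPM scaled by TMM (y axis from 0, different for each gene) by group (x axis). Symbols are the 3 replicates and black lines are group means. Dusp1 lies between 70.3 and 92.6 CPM in M1 and between 19.4 and 28.6 CPM in M0.

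M1 cells held more Dusp1, Dusp2 and Dusp5 than M0 cells, and these 3 genes passed the test in that direction. A gene passed, or was called, at an adjusted p under 0.05 in edgeR's quasi-likelihood test over all genes and a log2 fold change over 0.5 in size. Calls made up 14.1% of all genes tested in this comparison, and calls in the higher direction 9.70%. The libraries of the groups did not overlap for 7 of the 10 genes, against 32.2% of all genes. The median log2 fold change was 0.28 over the 10 genes and −0.01 over all genes tested.

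Dusp1 (ENSMUSG00000024190) encodes MKP-1, a nuclear phosphatase of p38, JNK and ERK. Its level was 19.4, 24.3 and 28.6 CPM in the M0 libraries and 70.3, 80.2 and 92.6 CPM in the M1 libraries. All M1 libraries were above all others of the series. Dusp1 rose in M1 by a log2 fold change of 1.76 (SE 0.29, 95% interval 1.14 to 2.38, adjusted p = 0.000993 by edgeR). The call held without each library in turn, in 6 of 6 fits.

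Dusp2 (ENSMUSG00000027368) encodes PAC-1, a nuclear phosphatase first known from activated lymphocytes. It measured 4.61, 3.45 and 3.82 CPM in M0 and 9.89, 7.38 and 7.48 CPM in M1, without overlap. Dusp2 rose by a log2 fold change of 1.03 (SE 0.25, 95% interval 0.5 to 1.56, adjusted p = 0.0126 by edgeR). The call was lost without M0 2 (adjusted p = 0.051 by edgeR) and without M1 1 (adjusted p = 0.0516 by edgeR).

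Dusp5 (ENSMUSG00000034765), a nuclear phosphatase selective for ERK, was at 1.92, 1.63 and 1.27 CPM in M0 and at 3.87, 5.54 and 4.37 CPM in M1. The lowest M1 library was above the highest M0 library. Its log2 fold change was 1.45 (SE 0.29, 95% interval 0.84 to 2.06, adjusted p = 0.00375 by edgeR), and it passed without each library in turn.

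Dusp4 (ENSMUSG00000031530) encodes MKP-2, the nearest relative of MKP-1. It was at 7.35, 10.4 and 7.07 CPM in M0 and at 12.6, 31 and 29.3 CPM in M1. The M1 libraries were all above M0 but spread widely, with M1 1 far below the others. The difference, a log2 fold change of 1.55 (SE 0.52, 95% interval 0.43 to 2.68), missed the test (adjusted p = 0.0644 by edgeR). Without M1 1 the log2 fold change was 1.86 and passed (adjusted p = 0.04 by edgeR). It passed under 3 of 7 other settings, among them DESeq2 with all libraries (adjusted p = 0.022). Not every one of these settings used all libraries.

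The remaining genes lay lower or near M0 in M1, and none passed the test. Dusp6 (ENSMUSG00000019960), which encodes the cytoplasmic ERK phosphatase MKP-3, was at 68.9, 81.2 and 81.9 CPM in M0 and at 42, 40.4 and 45.1 CPM in M1. The groups were well separated, yet the log2 fold change of −0.86 (SE 0.27, 95% interval −1.45 to −0.28) narrowly missed the test at an adjusted p of 0.0505 by edgeR. It passed under 4 of 7 other settings, among them DESeq2 (adjusted p = 0.0142), and in none of the 6 fits without 1 library.

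Dusp3 (ENSMUSG00000003518), which encodes VHR, was at 380, 324 and 337 CPM in M0 and at 276, 261 and 241 CPM in M1. Its adjusted p was 0.0421 by edgeR, but the log2 fold change of −0.42 (SE 0.13) was under the fold threshold, so it was not called. Spred1 (ENSMUSG00000027351), which holds RAF in check, was at 35.5, 24.7 and 25.3 CPM in M0 and at 21.8, 14.9 and 12.7 CPM in M1. Its log2 fold change was −0.80 (SE 0.26, adjusted p = 0.0594 by edgeR). For both genes every M1 library was below every M0 library. Without M1 1 the log2 fold change of Spred1 was −1.05 and passed (adjusted p = 0.0305 by edgeR). DESeq2 called Spred1 with all libraries (adjusted p = 0.0303).

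Spry2 (ENSMUSG00000022114) was the most variable of the abundant genes in M0, at 139, 54.1 and 70.4 CPM, and overlapped with M1 at 78.4, 45.8 and 33.2 CPM. Its log2 fold change in M1 was −0.75 (95% interval −1.54 to 0.05, adjusted p = 0.21 by edgeR). Dusp16 (ENSMUSG00000030203), a phosphatase of JNK and p38, was at 4.48, 2.93 and 4.4 CPM in M0 and at 6.19, 4.31 and 4.57 CPM in M1, with a log2 fold change of 0.34 (95% interval −0.36 to 1.04). Dusp10 (ENSMUSG00000039384), also of the JNK and p38 class, had between 3 and 56 counts in a library and between 0.316 and 1.13 CPM. No difference in Dusp10 was detectable at this depth in any of the 6 comparisons, and its largest fitted log2 fold change was 0.42 with CaP against M0 (95% interval −0.52 to 1.35).

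**Figure D2:**
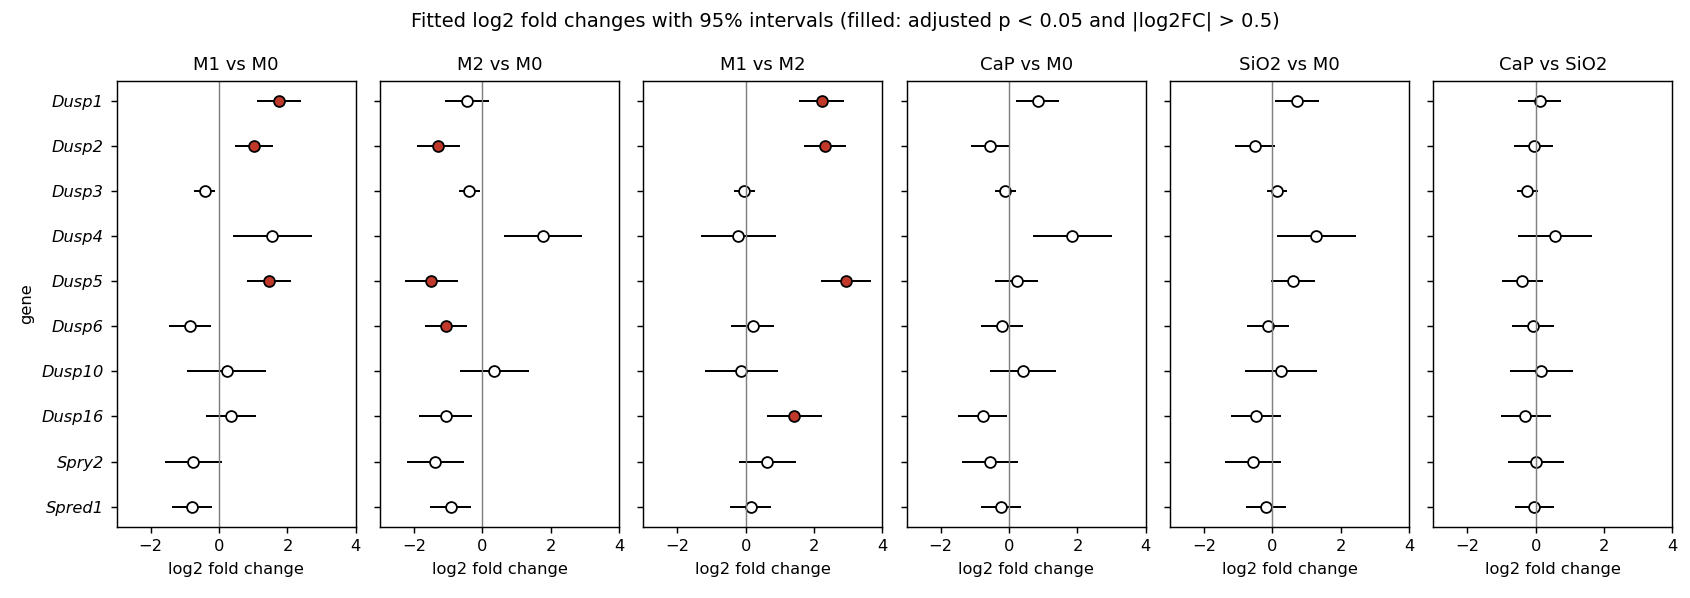
Fitted log2 fold change of the 10 genes in the 6 comparisons (x axis) with 95% intervals (lines). Filled points were called. Filled points number 3 in M1 against M0, 3 in M2 against M0 and 4 in M1 against M2, and none in the microrod comparisons.

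Against M0, M2 cells held less Dusp2, Dusp5 and Dusp6, and these 3 genes passed the test. Calls made up 4.13% of all genes tested, and calls in the lower direction 2.13%. The libraries of the groups did not overlap for 6 of the 10 genes, all lower in M2, against 15.2% of all genes. The median log2 fold change was −1.0 over the 10 genes and 0.07 over all genes tested. M1 and M2 were compared with the same 3 M0 libraries, so their fold changes are not independent of each other.

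Dusp2 was at 1.16, 2.76 and 1.52 CPM in M2, all below the lowest M0 library. It fell by 1.29 on the log2 scale (SE 0.28, adjusted p = 0.0179 by edgeR). Dusp5 was at 0.751, 0.395 and 0.587 CPM in M2, from between 3 and 41 counts, and fell by 1.49 on the log2 scale (SE 0.34, adjusted p = 0.0269 by edgeR). Both calls were lost in 3 of 6 fits without a library, namely without M0 1, M2 1 or M2 3. Without M0 1 the adjusted p by edgeR was 0.105 for Dusp2 and 0.168 for Dusp5. Without the filter on low counts both calls were lost too (adjusted p = 0.0548 and 0.0656 by edgeR). Dusp5 was also lost with the replicate number as a block (adjusted p = 0.0628 by edgeR) and without the 3 libraries that stood apart (adjusted p = 0.0541 by edgeR).

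Dusp6 was at 44, 28.8 and 37.8 CPM in M2, against at least 68.9 CPM in M0. It fell by 1.06 on the log2 scale (SE 0.27, 95% interval −1.65 to −0.47, adjusted p = 0.0459 by edgeR). The separation between the groups was wide, but the call stood at the threshold and was lost in all 6 fits without a library (adjusted p between 0.0666 and 0.132 by edgeR). It was also lost without M0 3, M2 2 and SiO2 2 together (log2 fold change −0.88, adjusted p = 0.156 by edgeR), with the replicate block (adjusted p = 0.0788 by edgeR) and with the legacy form of the test (adjusted p = 0.0519 by edgeR).

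Spry2 and Spred1 also lay below M0 in every M2 library. Spry2 was at 25.2, 46.2 and 31 CPM in M2, with a log2 fold change of −1.38 (SE 0.38, adjusted p = 0.0578 by edgeR). Spred1 was at 12, 21.3 and 12.6 CPM, with a log2 fold change of −0.93 (SE 0.26, adjusted p = 0.0673 by edgeR). In both genes M2 2 was the highest library of its group. Without it, both passed, with log2 fold changes of −1.63 for Spry2 and −1.21 for Spred1 (adjusted p = 0.0326 and 0.0105 by edgeR). Spry2 also passed without M0 2 (adjusted p = 0.0324 by edgeR). Without the 3 libraries that stood apart, both passed as well (adjusted p = 0.0481 and 0.028 by edgeR). DESeq2 called both with all libraries (adjusted p = 0.0166 for Spry2 and 0.029 for Spred1).

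Dusp4 was split in M2. It was at 38.3 and 37.1 CPM in M2 1 and M2 3 and at 7.76 CPM in M2 2, within the M0 range of 7.07 to 10.4. The log2 fold change was 1.77 (SE 0.52, adjusted p = 0.0788 by edgeR). Without M2 2 it was 2.19 and passed (adjusted p = 0.00812 by edgeR). DESeq2 called Dusp4 with all libraries (adjusted p = 0.0169). M2 2 had 8594947 counts, the lowest total of its group, and 2.13% of counts from mitochondrial genes against 1.03% and 1.28% in the other M2 libraries. The part of these measures in the split was not tested.

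Dusp1, in contrast to M1, was at 20.6, 11.8 and 19.1 CPM in M2 and overlapped with M0 (log2 fold change −0.46, 95% interval −1.08 to 0.16). Dusp3 was at 254, 284 and 262 CPM, below every M0 library, with a log2 fold change of −0.38 (SE 0.13, adjusted p = 0.126 by edgeR). Dusp16 was at 1.91, 3.29 and 1.3 CPM, highest in M2 2, with a log2 fold change of −1.08 (SE 0.35, adjusted p = 0.113 by edgeR). Without M2 2 it was −1.37 and passed (adjusted p = 0.0223 by edgeR), and without the 3 libraries that stood apart it was −1.33 and did not (adjusted p = 0.0624 by edgeR).

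The group means compared between M1 and M2 do not include the M0 libraries, which enter only the scaling, the filter and the shared estimate of spread. Dusp1, Dusp2, Dusp5 and Dusp16 were higher in M1 and passed the test, where calls made up 16.1% of all genes tested and calls in the higher direction 10.6%. For these 4 genes, and for none of the other 6, the libraries did not overlap, against 29.4% of all genes. The largest difference was that of Dusp5, with a log2 fold change of 2.94 (SE 0.32, 95% interval 2.24 to 3.64, adjusted p = 2.45e-05 by edgeR). It was followed by Dusp2 at 2.32 (SE 0.27, adjusted p = 4.3e-05 by edgeR) and Dusp1 at 2.22 (SE 0.29, adjusted p = 0.000118 by edgeR). These 3 calls held without each library in turn.

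Dusp16 differed between M1 and M2 by a log2 fold change of 1.42 (SE 0.35, adjusted p = 0.0139 by edgeR), and its call was lost without M1 1 (adjusted p = 0.0618 by edgeR) and without M2 3 (adjusted p = 0.115 by edgeR). Dusp6, which was lower in both stimulated groups than in M0, did not pass between them, with a log2 fold change of 0.20 (95% interval −0.39 to 0.79). For Dusp3 the interval was narrow, −0.32 to 0.24, and for Spred1 it was −0.44 to 0.71. Dusp4 had an interval of −1.28 to 0.85, the widest of the 10.

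**Figure D3:**
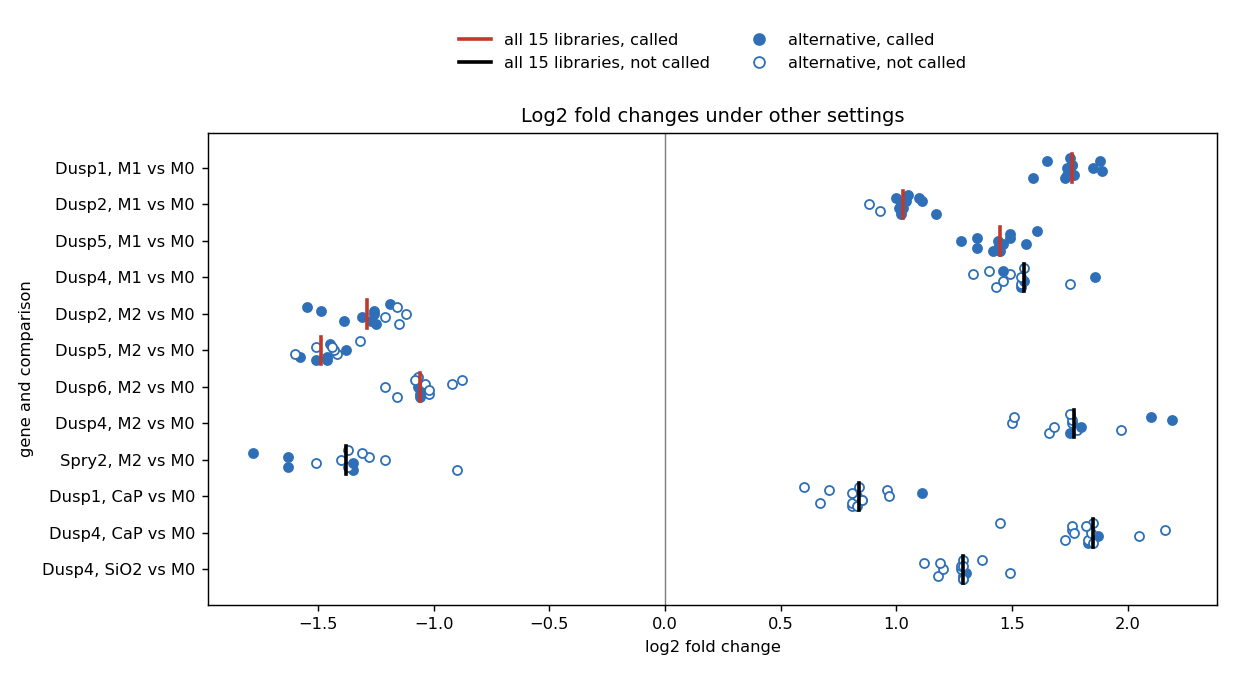
Log2 fold change (x axis) of 12 gene and comparison pairs (y axis) with all 15 libraries (vertical bars) and under each other setting or without each library (points). Filled points and red bars passed the test. Dusp1 in M1 stays filled between 1.59 and 1.89, whereas Dusp6 in M2 holds open points between −1.21 and −0.88.

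Microrods left all 10 genes without a call. With CaP against M0, 0 of the 10 genes passed in edgeR, where calls made up 0.654% of all genes tested. At an unadjusted p below 0.05 there were 4, namely Dusp1, Dusp2, Dusp4 and Dusp16, against 15.8% of all genes, and DESeq2 called 1 of the 10, Dusp4, with 2.81% of all genes called. With SiO2 against M0, 0 passed in edgeR, where calls made up 0.264% of all genes tested, 2 were at an unadjusted p below 0.05 (Dusp1 and Dusp4, against 8.17% of all genes), and DESeq2 called 0, with 0.793% of all genes called. Groups did not overlap for 2 genes with CaP and for 3 with SiO2, against 17.4% and 18.0% of all genes. Both microrod groups share the M0 libraries.

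Dusp1 was at 24.2, 50.2 and 54.2 CPM with CaP and at 41.2, 41.4 and 35.7 CPM with SiO2. Every SiO2 library was above the highest M0 library of 28.6 CPM, and so were the CaP libraries other than CaP 1. The log2 fold change was 0.84 with CaP (95% interval 0.23 to 1.44, adjusted p = 0.187 by edgeR) and 0.72 with SiO2 (95% interval 0.11 to 1.33, adjusted p = 0.508 by edgeR). Without CaP 1 the value for CaP was 1.11 and passed (adjusted p = 0.0434 by edgeR). In both microrod groups every Dusp1 library was below every M1 library.

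Dusp4 was at 15, 31.3 and 43.5 CPM with CaP and at 20.3, 23 and 17.7 CPM with SiO2. All 6 libraries were above the M0 maximum of 10.4 CPM. The log2 fold change was 1.85 with CaP (95% interval 0.73 to 2.97, adjusted p = 0.127 by edgeR) and 1.29 with SiO2 (95% interval 0.17 to 2.41, adjusted p = 0.522 by edgeR). These calls depended on the setting. DESeq2 called the difference with CaP (adjusted p = 0.0218), and edgeR without the filter on low counts called both (adjusted p = 2.1e-07 with CaP and 0.00523 with SiO2). With the filter, neither was called in any of 6 fits without 1 library. The lowest adjusted p of those fits was 0.0689 with CaP and 0.407 with SiO2 by edgeR.

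Dusp2 was at 3.06, 2.56 and 2.54 CPM with CaP and at 2.59, 2.65 and 3.25 CPM with SiO2, all below the lowest M0 library of 3.45 CPM. Its log2 fold changes were −0.55 and −0.50 (adjusted p = 0.302 and 0.675 by edgeR). Dusp5 measured 2.26, 2.1 and 1.57 CPM with CaP and 1.71, 3.1 and 2.97 CPM with SiO2, and both groups overlapped with M0. Dusp16 was at 2.24, 2.96 and 1.94 CPM with CaP and at 2.45, 2.12 and 3.76 CPM with SiO2. The log2 fold change of Dusp16 with CaP was −0.77 (SE 0.32, adjusted p = 0.272 by edgeR).

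Dusp6, which was lower in M1 and M2, was at 35.2, 89 and 78.5 CPM with CaP and at 66.3, 81.2 and 65.4 CPM with SiO2. CaP 1 was far below the lowest M0 library of 68.9 CPM, and SiO2 1 and SiO2 3 were slightly below it. The log2 fold change was −0.20 with CaP and 0.10 without CaP 1, and it was −0.12 with SiO2 (95% interval −0.70 to 0.46). Spry2 was at 69.3, 63.1 and 47.1 CPM with CaP and at 53.6, 50.4 and 73.2 CPM with SiO2. Spred1 was at 24.9, 27.6 and 20.6 CPM with CaP and at 20.8, 26.9 and 27.2 CPM with SiO2. Both inhibitor genes overlapped with M0 in both microrod groups.

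Between CaP and SiO2, 0 of the 10 genes passed in edgeR, 0 were at an unadjusted p below 0.05 (1.66% of all genes) and DESeq2 called 0 (0.0961% of all genes), where edgeR's calls made up 0.0180% of all genes tested. The widest interval was that of Dusp4, whose log2 fold change of 0.56 had a 95% interval of −0.50 to 1.62. The narrowest was that of Dusp3, at −0.25 (95% interval −0.52 to 0.03), with 305, 362 and 298 CPM for CaP and 375, 372 and 398 CPM for SiO2. Dusp3 was the only one of the 10 genes whose CaP and SiO2 libraries did not overlap, against 8.10% of all genes. For Dusp1 the interval was −0.48 to 0.72 and for Dusp6 −0.65 to 0.50. These intervals do not show that the materials act alike.

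The order of the groups differed from gene to gene. For Dusp1 the order of means was M1 (81 ± 11.2 CPM, SD, n = 3), CaP (42.9 ± 16.3), SiO2 (39.4 ± 3.24), M0 (24.1 ± 4.62) and M2 (17.2 ± 4.68), with overlap between CaP and SiO2 and between M0 and M2. For Dusp2 it was M1 (8.25 ± 1.42), M0 (3.96 ± 0.593), SiO2 (2.83 ± 0.364), CaP (2.72 ± 0.291) and M2 (1.81 ± 0.842), where the last 3 neighbours overlapped. Dusp5 ran from M1 (4.59 ± 0.856) to M2 (0.577 ± 0.178), with SiO2, CaP and M0 between them. Dusp4 was lowest in M0, and its other 4 groups overlapped as neighbours. For Dusp6, Spry2 and Spred1 the mean was highest in M0 and lowest in M2, with neighbours that overlapped throughout.

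Libraries of a group also differed from each other in a shared manner. Deviations of log2 CPM from the group mean correlated at r = 0.91 between Dusp1 and Dusp6, 0.81 between Dusp1 and Dusp4 and 0.67 between Dusp4 and Dusp6, over 15 libraries. In CaP 1, M2 2 and SiO2 3 all 3 of these genes were the lowest of their group. Spry2 and Spred1 deviated together (r = 0.87), as did Dusp2 and Spred1 (r = 0.84), while Dusp2 and Dusp4 deviated in opposite directions (r = −0.90). These values describe genes measured in the same libraries, which share depth and preparation.

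**Figure D4:**
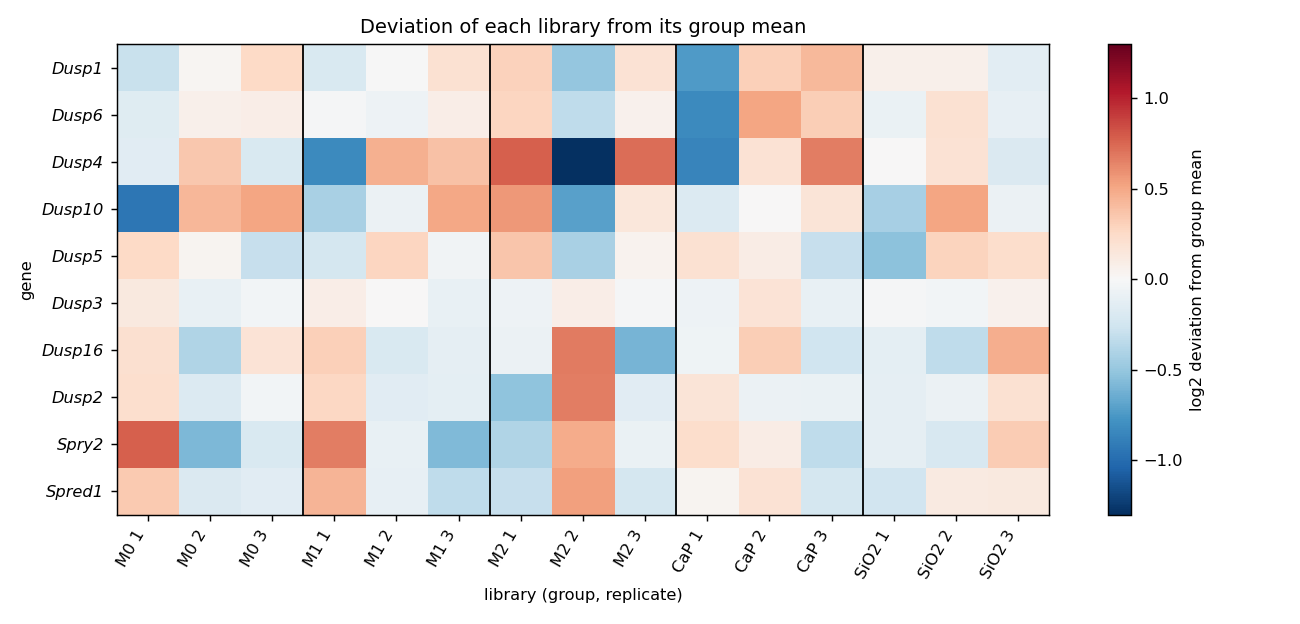
Deviation of log2 CPM from the group mean for the 10 genes (rows) in the 15 libraries (columns, groups separated by lines). Color is red above and blue below the mean, and its scale ends short of the lowest value, −1.51 for Dusp4 in M2 2. A small constant was added to CPM here, in place of the prior count behind the correlations. Dusp1, Dusp6 and Dusp4 are all blue in CaP 1 and M2 2, where they were the lowest of their group.

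Over all 15 libraries, group differences included, the log2 CPM of Spry2 and Spred1 correlated at r = 0.88, that of Dusp2 and Dusp16 at 0.87, that of Dusp3 and Spred1 at 0.85 and that of Dusp1 and Dusp5 at 0.84. Among 10339 genes with a mean of at least 5 CPM, the most alike to Dusp1 were Slc11a1 (r = 0.962), a metal transporter of the phagosome, and Rffl (r = 0.956). For Dusp2 they were Ifitm6 (r = 0.968) and Pilra (r = 0.967), for Dusp5 Mgat5 (r = 0.954) and Susd6 (r = 0.938), and for Dusp16 Rhno1 (r = 0.952) and Synj1 (r = 0.943). Dusp6 was most like Colec12 (r = 0.945) and Poc1b (r = 0.923). Slc11a1 had means of 46.7, 171, 27.1, 71 and 68.6 CPM in M0, M1, M2, CaP and SiO2, the same order of groups as Dusp1. It was picked by r over these same libraries, so the like order is not a separate result.

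The pathway lists are read against the same shares of all genes tested, 14.1% called in M1 against M0 and 4.13% in M2 against M0, and no list was tested as a group. Of 15 other dual-specificity phosphatases, 12 were tested. In M1, 1 was higher and 3 were lower than in M0, and in M2, 2 were higher and 1 was lower. Ssh2, a phosphatase of cofilin, fell by 1.36 on the log2 scale in M1 (SE 0.18, adjusted p = 0.000185 by edgeR). Dusp7, a cytoplasmic ERK phosphatase related to Dusp6 and singled out after its values were seen, was at 28.6 ± 4.45 CPM in M0, 14.4 ± 0.972 in M1 and 44.9 ± 2.4 in M2 (SD, n = 3). Dusp7 was thus lower in M1 (log2 fold change −0.99, adjusted p = 0.00055 by edgeR) and higher in M2 (0.65, adjusted p = 0.0216 by edgeR), whereas Dusp6 lay below M0 in both.

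Of 12 further inhibitors of RAS and ERK, 9 were tested, with 1 lower in M1, and 1 higher and 1 lower in M2. Rasa1, a GTPase-activating protein for RAS, fell by 1.36 in M1 and by 1.39 in M2 on the log2 scale (adjusted p = 0.00965 and 0.022 by edgeR). Rasa3, of the same class, rose in M2 by 1.14 (SE 0.19, adjusted p = 0.00337 by edgeR). Spry1, Spry3 and Spry4, the other Sprouty genes, were too low to be tested, which leaves Spry2 as the only Sprouty gene with a test here.

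Of 8 MAP kinases tested, 1 was higher in M1, Mapk11 (p38β), with a log2 fold change of 1.14 (SE 0.29, adjusted p = 0.0186 by edgeR). None passed in M2 by edgeR, where 1 of the 8 was at an unadjusted p below 0.05, against 2862 of all 16654 genes tested. Of 22 upstream kinases, RAF and RAS genes, 2 were higher in M1 and 1 was lower in M2. The gene lower in M2 was Map2k6, an activator of p38, which fell by 1.47 on the log2 scale (SE 0.28, adjusted p = 0.00794 by edgeR). Of 7 kinases that MAP kinases act on, 1 was lower in M1 and none passed in M2 by edgeR. In M2, 1 of the 7 was at an unadjusted p below 0.05, against the same 2862 of 16654 genes.

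The last list held genes often used as a readout of ERK activity. Of 10 tested, 5 were higher and none lower in M1, where 9.70% of all genes were called higher. In M2, 2 were higher and 2 lower, where 4.13% of all genes were called. In M1 these were Myc (log2 fold change 3.15), Phlda1 (2.60), Etv4 (2.51), Ier3 (1.54) and Fos (1.28), with adjusted p between 3.03e-05 and 0.046 by edgeR. In M2, Fos and Egr1 fell by 2.04 and 1.23 on the log2 scale (adjusted p = 0.000176 and 0.012 by edgeR), whereas Ier3 rose by 2.27 (adjusted p = 0.0156 by edgeR). Fos was thus higher in M1 and lower in M2, as Dusp2 and Dusp5 were, whereas Ier3 was higher in both.

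With microrods, 1 tested gene of all 6 lists passed in edgeR, Ier3 with CaP. Calls made up 0.654% of all genes tested with CaP, 0.264% with SiO2 and 0.0180% between the materials. Ier3 was at 59.1 ± 17.6 CPM with CaP against 10.3 ± 6.91 CPM in M0 (SD, n = 3). Its log2 fold change was 2.53 (SE 0.48, adjusted p = 0.0338 by edgeR). With SiO2 it was at 35.3 ± 1.14 CPM, and its log2 fold change of 1.78 missed the test (adjusted p = 0.241 by edgeR). Ier3, like Dusp1, is an early response gene.

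The annotation of GRCm38 places other genes over some of these rows, and the strand used in counting is not given in the sources used here. Dusp3 shares 604 exon bases with the antisense gene Gm20659, which had at most 2 counts in a library, and Dusp5 shares 547 with the antisense gene AC137853.2, with at most 8 counts. Dusp1 shares 11 exon bases with Ergic1 on the other strand, which had up to 9408 counts. In bulk RNA less RNA of a gene per cell and fewer cells that express it cannot be told apart.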

How the data were processed

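RNA-seq of 15 MH-S wells in 5 groups of 3 was analysed. The authors made Smart-seq2 libraries without molecular identifiers, aligned reads to GRCm39 with STAR and quantified them with Salmon, and deposited whole-number counts per Ensembl gene, which may be rounded Salmon estimates, without normalization. Intervals therefore cover counting and replicate error of amplified cDNA only. Genes were named from annotations of mouse GRCm38, which also gave exon lengths.

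Tests on the counts were run with edgeR 4.0.16 and DESeq2 1.42.0 under R 4.3.3. Genes were filtered with filterByExpr by group, scaled with TMM and tested with the quasi-likelihood test (non-legacy form) in 1 fit of all 15 libraries without covariates, with Benjamini-Hochberg adjustment over 16654 genes. A gene was called where the adjusted p was under 0.05 and the size of the log2 fold change over 0.5. SE is the log2 fold change divided by the root of F. Levels are CPM of the scaled library size, and correlations used log2 CPM with a prior count of 2. With 3 wells a group, an exact permutation test of a single value cannot go below p = 0.1, so edgeR's adjusted p-values are given.

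The 10 genes and the 6 pathway lists were chosen with earlier results of these data known. All 10 genes are named. A list gene is named if it was called in M1 or M2 against M0 with an absolute log2 fold change above 1 and a mean of at least 5 CPM in a group, or was called in a microrod comparison. For each of the 10 genes with a call, the 2 tested genes with the highest Pearson r over the 15 libraries are named. Libraries of a group differed by a chi-square of 7.55 to 152 per gene, so none was counted as a copy. The tests were tried on simulated counts. Alternatives were DESeq2, its size factors, no filter, at least 10 counts in every library, a replicate block, a fit of 9 libraries without polarized cells, leaving out libraries and, added after seeing the data, the legacy quasi-likelihood. Coordinates of the counts were not used here.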

Additional observations from a re-analysis of the deposited data

How the results depend on the processing

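Among the recomputed values, 712 kept direction and side of the threshold, 23 lost it, 29 gained it and 34 changed sign. The cause was not tested except where stated. Shares in brackets are of all genes called under the same setting. DESeq2 called 6 of the 10 genes in M1 (16.8%) and 6 in M2 (5.97%) against M0 and 1 with CaP (2.81%). Without the filter the counts were 5 in M1 (6.45%), 1 with CaP (1.84%) and 1 with SiO2 (0.389%), and 3 in M2 (2.17%), namely Dusp4, Dusp6 and Spry2. The labels do not say whether replicate numbers pair the wells. Deviations of same-numbered libraries correlated at r from −0.7 to 0.6 over 30 pairs (median −0.005), and 8 of 15 libraries were closest to their own number. These values do not settle pairing. With a replicate block M2 against M0 held 1 call (3.03%), since Dusp5 and Dusp6 were lost, and no other call of the 10 genes changed. Without M0 3, M2 2 and SiO2 2 together, M1 held 5 calls (20.7%) and M2 held 4 (3.48%). With at least 10 counts in every library Dusp5 and Dusp10 were not tested. Leaving out each library in turn gave 2 to 4 calls in M1 against M0 (8.87% to 12.1%), 3 to 4 in M1 against M2 (10.3% to 24.9%) and 0 to 1 with CaP (0.926% without CaP 1). With SiO2 against M0 it gave 0 (0.0469% to 0.164%), and between CaP and SiO2 it gave 0 (0.0175% to 0.0234%). In M2 against M0 it gave 0 to 6, namely 0 without M0 1 (1.85%), M2 1 (2.39%) or M2 3 (2.15%) and 6 without M2 2 (7.95%). Signs turned only for differences that were not called. Between CaP and SiO2, Spry2 turned to −0.03 with the replicate block and −0.11 without the 3 libraries, where Dusp6 turned to 0.01, and in M1 against M2 Dusp3 went to 0. Without each library in turn, log2 fold changes spanned zero for Dusp10 in M1 against M0 (−0.45 to 0.59), M2 against M0 (−0.31 to 0.73), CaP against M0 (−0.26 to 0.79), SiO2 against M0 (−0.41 to 0.63), M1 against M2 (−0.42 to 0.06) and CaP against SiO2 (−0.05 to 0.43). They did so in M1 against M2 for Dusp4 (−0.73 to 0.09), Spred1 (−0.11 to 0.31), Dusp3 (−0.10 to 0.01) and Dusp6 (−0.04 to 0.33), and for Dusp6 with CaP against M0 (−0.44 to 0.10). Between CaP and SiO2 they did so for Dusp1 (−0.11 to 0.39), Dusp2 (−0.17 to 0.06), Dusp6 (−0.32 to 0.23), Spry2 (−0.12 to 0.19), Spred1 (−0.16 to 0.06) and Dusp16 (−0.44 to 0). An edgeR fit of the 9 libraries without polarized cells gave 0 calls of the 10 genes in the 3 microrod comparisons. There calls made up 0.409% of all genes with CaP, 0.0602% with SiO2 and 0.0241% between the materials. Depth limits Dusp10 and Dusp5 most.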
